A study of Mus musculus with 49 samples.

Results

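The change from 2 to 4 hours after ischemia was read directly between kidneys of 2 groups, IRI2h and IRI4h, with no sham kidney in between. All genes with at least 1 FPKM (a read count scaled for transcript length and library size) in at least 3 of the 49 libraries of the series entered, 14895 of 43309 genes in all, and the level of a gene was taken as log2(FPKM + 0.1). Each group holds 3 mice, R1 to R3, which the series describes as biological replicates. They were male C57BL/6NCrl mice of 10 to 12 weeks of no named engineered allele, whose renal vessels were clamped on both sides for 21 minutes and then opened (ischemia-reperfusion injury, IRI). Kidneys were taken 2 hours (IRI2h) or 4 hours (IRI4h) after the clamps came off. Both groups therefore share the surgery and the clamp, and differ by their labels in the hours of reperfusion. The values of SHAM4h, mice operated without clamping and killed at 4 hours, and IRI24h, clamped mice killed at 24 hours, are given beside some genes as means ± SD with n = 3 each, without a test. No sham kidney of 2 hours was analysed here, so that hours after ischemia, hours after surgery and the time of day cannot be told apart. No batch of library preparation is named in the labels used here, so that a difference in preparation between the groups cannot be told apart from these.

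Reperfusion sets off a transcriptional response in waves. Immediate early genes encode transcription factors whose RNA is made within minutes and decays fast, and their products act on genes of a later wave. Whether they act on the genes reported below was not tested. In parallel, misfolded protein releases heat shock factor, and amino acid or redox stress acts through the translation factor eIF2 and ATF4. The kidney is built mostly of tubules, and the proximal tubule is the segment most sensitive to loss of oxygen. RNA of kidney tissue mixes all its cells, so that fewer cells of a type and less RNA per cell cannot be told apart.

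Libraries of both groups were of like depth, with 38163673 to 47374490 reads per library as inferred from the FPKM steps. The proximal tubule markers that define the bulk of a kidney were high in every library, with a summed level of 44240 to 56957 FPKM over 21 genes. Most of that sum was 1 gene, Kap, at 32065 to 41798 FPKM. The library IRI2h-R3 stood apart. Its deviation from the mean of all libraries followed the GC content of the transcripts with r = 0.56 across genes, the highest of the 49 libraries, against -0.02 to 0.11 in the other 5 libraries of both groups, and it differed from its group mates by 0.67 on the log2 scale (root mean square) against 0.38 to 0.49. The library IRI4h-R1 carried more RNA of neutrophil and macrophage markers. The summed level of 14 neutrophil markers was 131 FPKM there and 25.7 and 26.3 FPKM in IRI4h-R2 and R3, against 13.4 to 21.7 FPKM at 2 hours, and the 15 monocyte and macrophage markers summed to 218 FPKM against 70.6 and 93.0 FPKM. Of the neutrophil markers, Mpo was at 0 in all 6 libraries, while no listed macrophage marker was. The T, B and NK cell markers were not raised in IRI4h-R1, with a sum of 2.42 FPKM against 1.98 and 2.84 FPKM in IRI4h-R2 and R3. Counts of the main gene lists are given below also without IRI2h-R3 and without IRI4h-R1. Values of single libraries are given in the order R1, R2, R3.

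In the fit of all 49 libraries, 2047 genes were higher at 4 hours than at 2 hours (13.7% of the genes tested, adjusted p under 0.05) and 1577 were lower (10.6%). A change of at least 2-fold was seen for 638 higher genes (4.28%) and 152 lower genes (1.02%), so that the larger changes were mostly increases. The median change over all genes tested was 0.03 on the log2 scale. All 3 libraries of one group lay beyond all 3 of the other for 2773 genes in the higher direction (18.6% of the genes tested) and 2790 in the lower direction (18.7%). Without IRI2h-R3, 1031 genes were higher (6.92%) and 1120 lower (7.52%), of which 333 (2.24%) and 150 (1.01%) by at least 2-fold. Of the calls made with all libraries, 973 higher and 916 lower genes were called the same way without IRI2h-R3, and 0 were called in the other direction. With the GC trend of each library removed, 1845 genes were higher (12.4%) and 1510 lower (10.2%), of which 439 (2.96%) and 129 (0.87%) by at least 2-fold. Without IRI4h-R1, 1233 genes were higher (8.28%) and 1030 lower (6.92%), of which 427 (2.87%) and 115 (0.772%) by at least 2-fold, so that list counts without that library are to be read against these shares. Each other list count below is likewise to be read against the shares over all genes in the same fit. Fitting only these 6 libraries, without the spread of the other groups, called 102 higher and 81 lower genes. Quantile normalization moved the split from 2047 higher and 1577 lower to 1719 higher and 2030 lower, and moved the median of all genes from 0.03 to -0.05. For each gene called below, the adjusted p stayed under 0.05 without any 1 of the 6 libraries and with the GC trend removed, unless stated otherwise. Of the 94 named genes, 88 were called in the fit of all 49 libraries. In the fit of only these 6 libraries 53 lost the call, so that those calls rest on the spread of the other groups too.

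**Figure D1:**
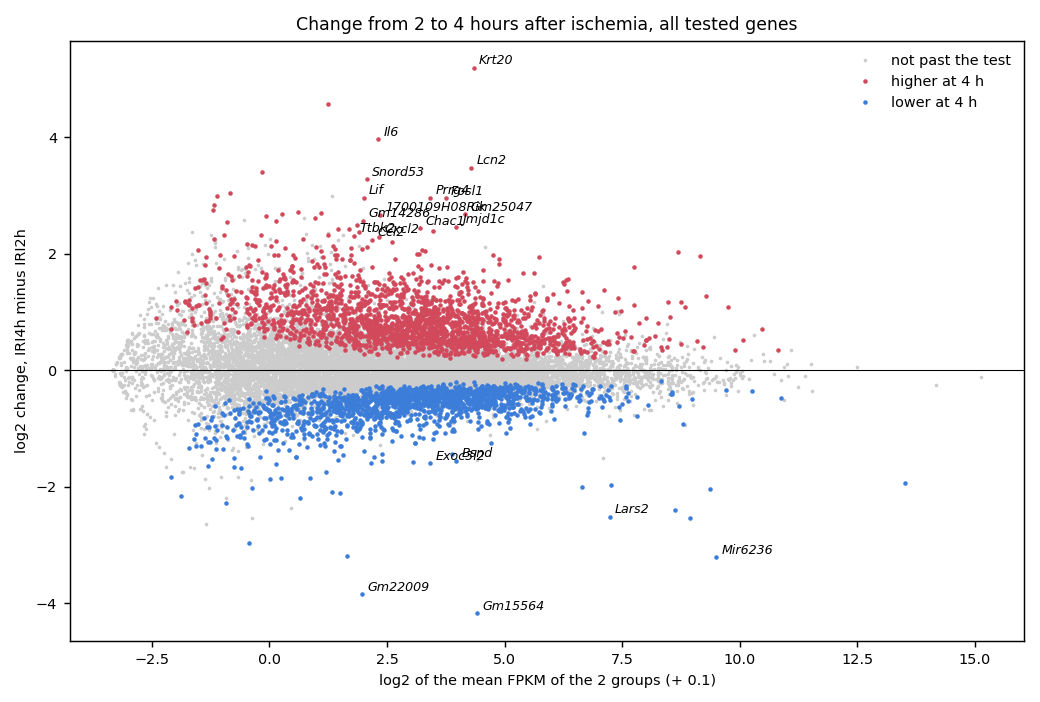
Log2 change from IRI2h to IRI4h (vertical) against the log2 mean FPKM of both groups (horizontal) for the 14895 genes tested, 1 point a gene. Red and blue points are the 2047 higher and 1577 lower genes. The keratin Krt20 lies at 5.19, and the lower extreme is held by genes that are not protein-coding, such as Gm15564 at -4.17.

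The change from 2 to 4 hours also followed base composition. The median change was 0.36 in the fifth of genes with the lowest GC content and -0.17 in the fifth with the highest, and across 14827 genes the change and the GC content had r = -0.33, a description with no test since genes are not independent. Without IRI2h-R3 the medians were 0.08 and -0.05 and r was -0.08. With the GC trend removed, 1505 of the 2047 higher calls and 1020 of the 1577 lower calls were made again in the same direction.

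**Figure D2:**
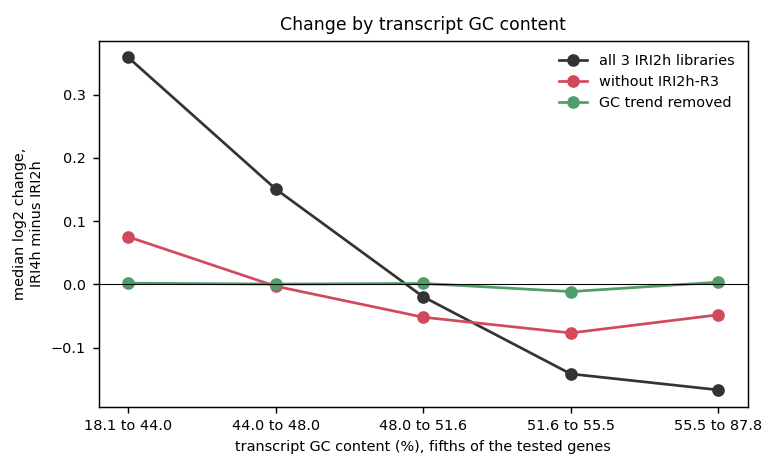
Median log2 change from IRI2h to IRI4h (vertical) in 5 equal bins of the tested genes by transcript GC content in percent (horizontal), with all libraries, without IRI2h-R3 and with the GC trend removed. The slope from 0.36 to -0.17 flattens to between 0.08 and -0.08 without IRI2h-R3.

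Promoters of genes that rose at least 2-fold were read for short motifs, since several of these genes belong to programs with a known binding element. The windows hold 250 bases before and 50 bases after the start of a gene (RefSeq, build GRCm38.p6), and 9974 of the 13209 protein-coding genes tested had one. Both strands were searched. The windows of 5 genes are shown in lower case with the motif in capitals. Il6 (chr5:30012864-30013163, + strand) and Cxcl2 (chr5:90903649-90903948, + strand) hold a match to the NF-kB consensus, whose first base lies 44 and 97 bases before the start, and Il6 also holds an AP-1 site (TGANTCA) 249 bases before it. Chac1 (chr2:119350992-119351291, + strand) and Asns (chr6:7693160-7693459, - strand) hold the composite C/EBP-ATF element (TGATGNAA, here on either strand), bound by ATF4. Cry1 (chr10:85185005-85185304, - strand) holds the E-box CACGTG, bound by CLOCK and BMAL1. All 5 windows shown hold a match, which other risen genes did not always do. Bcl3 and Steap4 also held an NF-kB match, while Birc3, Rela, Lif and Sele did not.
Il6: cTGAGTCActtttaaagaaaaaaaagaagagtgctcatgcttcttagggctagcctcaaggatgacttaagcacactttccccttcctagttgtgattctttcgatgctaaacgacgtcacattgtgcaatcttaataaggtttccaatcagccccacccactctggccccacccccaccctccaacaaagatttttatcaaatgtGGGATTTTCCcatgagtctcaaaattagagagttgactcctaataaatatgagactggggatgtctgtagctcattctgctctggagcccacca
Cxcl2: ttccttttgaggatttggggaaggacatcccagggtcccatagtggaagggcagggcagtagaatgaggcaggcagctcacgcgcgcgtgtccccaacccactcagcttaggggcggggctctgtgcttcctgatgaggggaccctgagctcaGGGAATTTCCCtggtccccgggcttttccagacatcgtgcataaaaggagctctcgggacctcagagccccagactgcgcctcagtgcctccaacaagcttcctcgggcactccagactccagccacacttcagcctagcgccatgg
Chac1: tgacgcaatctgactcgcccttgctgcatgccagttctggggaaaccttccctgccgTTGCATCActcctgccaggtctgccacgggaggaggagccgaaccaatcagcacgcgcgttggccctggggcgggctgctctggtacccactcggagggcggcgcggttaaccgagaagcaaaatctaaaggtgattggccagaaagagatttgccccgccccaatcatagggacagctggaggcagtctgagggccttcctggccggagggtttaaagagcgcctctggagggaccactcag
Asns: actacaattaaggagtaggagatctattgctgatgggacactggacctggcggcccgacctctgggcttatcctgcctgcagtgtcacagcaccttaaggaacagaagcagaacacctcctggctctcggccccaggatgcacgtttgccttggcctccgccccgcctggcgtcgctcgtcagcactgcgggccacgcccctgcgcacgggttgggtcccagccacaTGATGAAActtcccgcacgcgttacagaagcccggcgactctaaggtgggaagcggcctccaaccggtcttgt
Cry1: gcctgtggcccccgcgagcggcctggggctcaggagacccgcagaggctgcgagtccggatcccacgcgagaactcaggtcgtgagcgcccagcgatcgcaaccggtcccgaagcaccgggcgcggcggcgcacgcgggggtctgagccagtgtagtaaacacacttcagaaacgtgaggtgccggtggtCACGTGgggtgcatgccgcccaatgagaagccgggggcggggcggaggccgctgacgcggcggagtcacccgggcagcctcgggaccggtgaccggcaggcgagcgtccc
The AP-1 site was present in 8.43% of 415 windows of genes higher by at least 2-fold and in 5.22% of the 9974 windows of all protein-coding genes tested. Among the 176 such genes that were also higher by at least 2-fold without IRI2h-R3, it was present in 11.93%. The C/EBP-ATF element, which was chosen after values were seen, was present in 4.58%, 2.31% and 5.68% of these same sets, and the TATA box (TATAAA) in 9.16%, 7.22% and 13.07%. The heat shock element (GAANNTTC) was present in 7.71% of the higher genes, 5.72% of all tested and 9.09% of the 176. The NF-kB consensus (5.54% against 5.15%), the E-box (9.64% against 10.03%), the cyclic AMP element TGACGTCA (3.37% against 3.07%), the hypoxia element ACGTGC (8.67% against 7.93%) and the CArG box of serum response factor (1.69% against 1.27%) were present at shares close to those of all tested genes. Among the 176 genes, the shares of these motifs, in the same order, were 5.68%, 6.82%, 2.27%, 6.25% and 0.57%. The NF-kB consensus apart, these lay below the shares of all tested genes. Of 68 windows of genes lower by at least 2-fold, 3 held an AP-1 site and 0 a C/EBP-ATF element. Over all 27025 windows of the reference, the AP-1 site was present in 7.93%, the C/EBP-ATF element in 4.06%, the TATA box in 14.16% and the NF-kB consensus in 4.35%. A match is a run of letters and not a measured binding site.

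Of tubule injury markers, some rose strongly. Of 20 genes tested, 9 rose and 0 fell, and the median change was 1.09 against 0.03 over all genes. Of the 20, 14 lay above every 2-hour library, beside 18.6% of all genes tested. The largest change among protein-coding genes tested was that of Krt20, a keratin of the epithelial cytoskeleton, which stood at 0.676, 0.386 and 0.990 FPKM at 2 hours and at 80.2, 30.7 and 7.92 FPKM at 4 hours. The groups were far apart, and the 4-hour libraries themselves differed widely, highest in R1 and lowest in R3. The change was 5.19 on the log2 scale (SE 0.85, adjusted p = 3.26e-05), beside 0.363 ± 0.235 FPKM in SHAM4h and 167 ± 38.4 FPKM in IRI24h. Lcn2 encodes lipocalin 2, a carrier of bacterial iron chelators that injured tubules secrete. It stood at 1.64, 1.43 and 1.82 FPKM at 2 hours, below the SHAM4h mean of 3.09 ± 1.66 FPKM, and at 93.5, 12.3 and 5.87 FPKM at 4 hours (change 3.47, SE 0.88, adjusted p = 0.00383). Without IRI4h-R1 the call was lost (adjusted p = 0.0749). Sox9, a transcription factor of tubule repair, rose from 0.709, 0.374 and 1.02 FPKM to 4.22, 2.33 and 1.90 FPKM (change 1.87, SE 0.48, adjusted p = 0.00388). Tnfrsf12a, the receptor of the cytokine TWEAK, rose from 99.4, 53.5 and 154 FPKM to 427, 319 and 242 FPKM (change 1.78, SE 0.47, adjusted p = 0.00511). Havcr1, the kidney injury molecule KIM-1 and chosen here after its values were seen, was at 0.445, 0.517 and 0.435 FPKM and then 1.53, 0.815 and 0.439 FPKM (change 0.72, adjusted p = 0.614), against 1106 ± 156 FPKM in IRI24h. Krt20 was thus well up at 4 hours, while the groups of Havcr1 were close to each other. Without IRI2h-R3 6 of the 20 markers rose, and without IRI4h-R1 5 did.

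**Figure D3:**
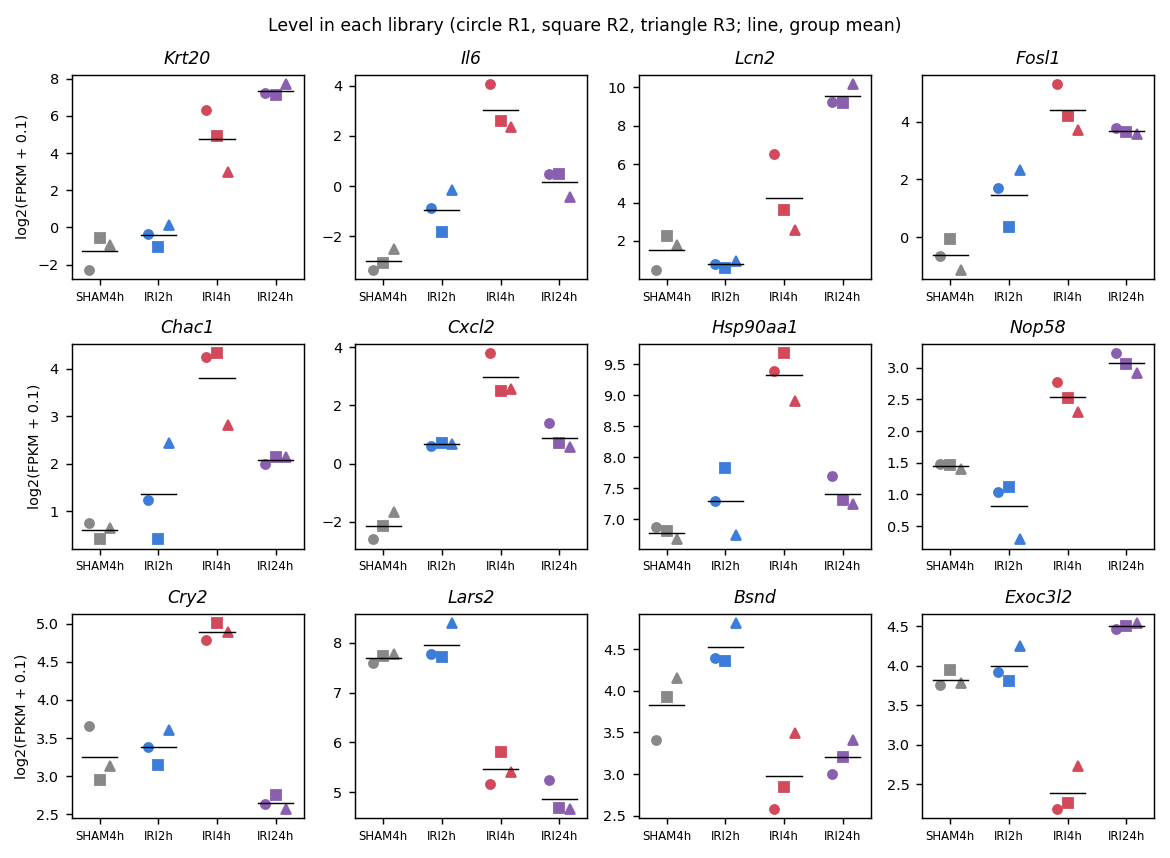
Level of 12 genes as log2(FPKM + 0.1) (vertical) in each library of SHAM4h, IRI2h, IRI4h and IRI24h (circle R1, square R2, triangle R3), with the group mean as a line. Krt20 rises from below 1 FPKM at 2 hours to between 7.92 and 80.2 FPKM at 4 hours, Cry2 is high at 4 hours, and Lars2, Bsnd and Exoc3l2 fall.

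Il6 and Lif, of the interleukin 6 family, rose. Of 13 cytokine and colony-stimulating factor genes tested, 5 rose and 1 fell, with a median change of 0.81. Il6 itself, the cytokine that acts through gp130 and STAT3, stood at 0.445, 0.181 and 0.812 FPKM at 2 hours and at 16.7, 5.98 and 5.06 FPKM at 4 hours, all 3 libraries well above the earlier ones (change 3.96, SE 0.54, adjusted p = 2.52e-06). SHAM4h was at 0.0318 ± 0.0389 FPKM and IRI24h at 1.08 ± 0.378 FPKM. Lif, a cytokine of the same receptor family, rose from 0.593, 0.411 and 0.945 FPKM to 14.9, 3.30 and 3.34 FPKM (change 2.96, SE 0.60, adjusted p = 0.000416). Il11 (change 1.90, adjusted p = 0.00726) and Clcf1 (change 1.18, adjusted p = 0.00895), of the same family, were called with all libraries and not without IRI4h-R1 (adjusted p = 0.0868 and 0.0719). The gene that fell, named after its values were seen, was Ctf1, cardiotrophin 1, of the same family. It went from 5.04, 6.00 and 6.41 FPKM to 3.36, 3.67 and 4.86 FPKM (change -0.55, SE 0.20, adjusted p = 0.0445), and was not called without IRI2h-R2, IRI2h-R3, IRI4h-R1 or IRI4h-R2 (adjusted p = 0.0904, 0.166, 0.188 and 0.126) or with the GC trend removed (adjusted p = 0.13). Osmr, the receptor chain for oncostatin M, rose from 1.33, 1.55 and 0.892 FPKM to 10.7, 5.18 and 3.06 FPKM (change 2.09, SE 0.41, adjusted p = 0.00033). Among STAT3 feedback and acute-phase genes, 6 of 24 rose and 1 fell, with a median of 0.62. Steap4, a metalloreductase of iron and copper, rose with them (change 2.12, SE 0.62, adjusted p = 0.0113) and was not called without IRI4h-R1 (adjusted p = 0.199). The gene that fell, Saa2, was listed at 0 in all 3 libraries of 4 hours and at 0.144 to 0.392 FPKM at 2 hours. It shares reads with near-identical serum amyloid genes, and was not called with the GC trend removed (adjusted p = 0.0615), nor without any 1 of the libraries other than IRI2h-R2 (adjusted p = 0.0859 to 0.17). Without IRI2h-R3 the cytokine count was 5 higher and 0 lower and the STAT3 count 6 and 0. Without IRI4h-R1, the library rich in neutrophil and macrophage markers, 2 cytokine genes and 1 STAT3 gene rose, beside 8.28% of all genes, and the part of leukocytes in this was not tested.

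Of 18 chemokines tested, 2 rose (11.11%) and 1 fell (5.56%), no more than the shares over all genes, and the median change was 0.07. The count was 2 higher and 0 lower without IRI2h-R3 and 1 and 0 without IRI4h-R1. Cxcl2, a ligand of the neutrophil receptor CXCR2, was at 1.44, 1.53 and 1.49 FPKM at 2 hours and at 13.7, 5.59 and 5.86 FPKM at 4 hours, with groups well apart (change 2.29, SE 0.59, adjusted p = 0.00438). Ccl2, the ligand of the monocyte receptor CCR2, rose from 1.36, 0.656 and 1.91 FPKM to 14.8, 4.36 and 3.41 FPKM (change 2.24, SE 0.72, adjusted p = 0.0201), a call that was lost without IRI4h-R1 (adjusted p = 0.162) and without IRI2h-R2 (adjusted p = 0.086). Ccl4, a chemokine of the CC class, was lower at 4 hours, from 1.69, 2.65 and 1.88 FPKM to 0.570, 0.553 and 0.913 FPKM (change -1.49, SE 0.54, adjusted p = 0.0418), and was not called without any 1 of the libraries other than IRI4h-R3 (adjusted p = 0.0512 to 0.121). Subunits, inhibitors and feedback targets of NF-kB rose in 7 of 18 genes tested and fell in 0, with a median of 0.55, and the count was 5 without IRI2h-R3 and 4 without IRI4h-R1. Rela, the p65 subunit, went from 27.1, 22.7 and 38.8 FPKM to 65.4, 50.6 and 47.2 FPKM (change 0.90, SE 0.16, adjusted p = 0.000129). The nuclear cofactor Bcl3 rose from 2.54, 2.10 and 5.19 FPKM to 17.3, 6.52 and 7.28 FPKM (change 1.60, SE 0.38, adjusted p = 0.0024), and the apoptosis inhibitor Birc3 from 3.28, 3.45 and 2.67 FPKM to 14.3, 6.68 and 6.16 FPKM (change 1.4, SE 0.31, adjusted p = 0.00118). The groups did not overlap for these 3 genes. On the endothelial side, 4 of 9 activation genes rose and 0 fell, against 4 and 1 without IRI2h-R3 and 2 and 0 without IRI4h-R1. Sele, the leukocyte adhesion molecule E-selectin, rose from 0.766, 0.451 and 0.516 FPKM to 5.77, 2.16 and 1.72 FPKM (change 2.12, SE 0.52, adjusted p = 0.00267).

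The first wave of transcription factors did not rise further as a list. Of 22 immediate early transcription factor genes tested, 2 rose, 0 fell and the median change was -0.26, or -0.05 without IRI4h-R1. Against the mean of the 2-hour libraries, the median of the list was -0.52 in IRI4h-R1, 0.02 in R2 and 0.06 in R3. Fos, a subunit of the AP-1 factor, was at 711, 550.2 and 527 FPKM at 2 hours and at 221, 389 and 334 FPKM at 4 hours, with all 4-hour libraries below the earlier ones, and the difference did not pass the test (change -0.95, SE 0.79, adjusted p = 0.412). Its SHAM4h mean was 1.33 ± 0.851 FPKM. Nr4a1, an orphan nuclear receptor chosen after its values were seen, was at 224, 184 and 189 FPKM and then 45.8, 71.6 and 104 FPKM (change -1.51, SE 0.69, adjusted p = 0.109). Jun was at 619.5, 563 and 597 FPKM and then 229, 659.9 and 403 FPKM (change -0.59, SE 0.30, adjusted p = 0.147). Jun was called lower without IRI4h-R2 (adjusted p = 0.0253). The test shares 1 estimate of the spread over all groups of the series. By contrast Fosl1, a late AP-1 subunit, rose from 3.13, 1.19 and 4.85 FPKM to 39.5, 18.2 and 13.1 FPKM, without overlap (change 2.95, SE 0.51, adjusted p = 7.33e-05). Maff, a small Maf factor, rose from 47.6, 21.6 and 58.2 FPKM to 119, 128 and 100.1 FPKM (change 1.55, SE 0.50, adjusted p = 0.0205) and was not called without IRI2h-R2 (adjusted p = 0.126), IRI4h-R1 (adjusted p = 0.0607) or IRI4h-R2 (adjusted p = 0.0652). Among MAP kinase phosphatases and Sprouty-type inhibitors, 4 of 18 rose and 3 fell, against 4 and 2 without IRI2h-R3 and 2 and 1 without IRI4h-R1. Dusp16, a phosphatase of JNK and p38, rose from 12.8, 11.2 and 7.89 FPKM to 21.8, 33.3 and 24.2 FPKM (change 1.31, SE 0.17, adjusted p = 1.23e-06), and Dusp14 from 30.6, 17.1 and 35.01 FPKM to 60.2, 81.6 and 53.4 FPKM (change 1.28, SE 0.25, adjusted p = 0.000299). Klf2, a transcription factor of quiescent endothelium under flow, fell from 48.3, 40.1 and 43.3 FPKM to 22.9, 28.1 and 22.7 FPKM (change -0.84, SE 0.22, adjusted p = 0.0045), beside a SHAM4h mean of 22.6 ± 4.77 FPKM, while the Kruppel-like factors as a list counted 2 higher and 1 lower of 14 (1 and 1 without IRI2h-R3, 0 and 1 without IRI4h-R1).

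Heat shock proteins and their co-chaperones rose in 11 of 22 genes tested and fell in 0, with a median change of 0.57. Of the 22, 15 lay above every 2-hour library, beside 18.6% of all genes tested. The cytosolic chaperone Hsp90aa1 stood at 157, 228 and 107 FPKM at 2 hours and at 670.3, 816 and 478 FPKM at 4 hours, more than any 2-hour library in each case (change 2.03, SE 0.29, adjusted p = 6.51e-06). SHAM4h was at 110.2 ± 7.43 FPKM and IRI24h at 172 ± 30.4 FPKM, both below the 4-hour level. Dnajb4, a co-chaperone of HSP70, rose from 57.3, 56.4 and 25.6 FPKM to 86.9, 141 and 113 FPKM (change 1.35, SE 0.20, adjusted p = 1.21e-05). Hspa4l, a nucleotide exchange factor of HSP70, rose from 3.17, 4.31 and 1.45 FPKM to 7.31, 8.70 and 6.05 FPKM (change 1.39, SE 0.25, adjusted p = 0.000126). In these 3 genes IRI2h-R3 was the lowest library, and their adjusted p without it was 0.000272, 0.000406 and 0.00494. Hsph1 rose too (change 1.24, adjusted p = 0.0247), but was not called without IRI2h-R3 (adjusted p = 0.0872), IRI2h-R1 (adjusted p = 0.0516) or IRI4h-R2 (adjusted p = 0.144). Without IRI2h-R3 7 members rose, and without IRI4h-R1 9 did. Hspa1a and Hspa1b, near-identical copies whose reads cannot be assigned to one of them, are listed at 0 in every library.

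Targets of ATF4 in the integrated stress response rose in 8 of 23 genes tested and fell in 0 (median 0.45), 8 without IRI2h-R3 and 5 without IRI4h-R1. Atf4 itself rose from 120.5, 91.8 and 114 FPKM to 234, 225 and 193 FPKM (change 1.00, SE 0.15, adjusted p = 1.42e-05). Chac1, an enzyme that degrades glutathione, rose from 2.26, 1.24 and 5.34 FPKM to 19.0, 19.96 and 6.99 FPKM (change 2.44, SE 0.46, adjusted p = 0.000199), and its groups did not overlap although IRI4h-R3 lay close to IRI2h-R3. Asns, asparagine synthetase, rose from 2.30, 1.85 and 2.67 FPKM to 8.77, 4.85 and 3.37 FPKM (change 1.19, SE 0.28, adjusted p = 0.00189). Both hold the C/EBP-ATF element shown above. Trib3, a pseudokinase and feedback inhibitor of ATF4, was higher on average (change 1.37, adjusted p = 0.00663) with overlapping groups, and was not called without IRI4h-R2 (adjusted p = 0.058). Of 16 genes of the unfolded protein response of the endoplasmic reticulum, 4 rose, 0 fell and the median was 0.06. The largest of these changes was that of Hsp90b1, the chaperone GRP94, from 66.8, 81.1 and 31.7 FPKM to 131, 111 and 100.2 FPKM (change 1.03, SE 0.25, adjusted p = 0.00247). All 4 calls were lost without IRI2h-R3, where the limma count was 0, with 4 members higher at an unadjusted p under 0.05 and an adjusted p of 0.0721 for Hsp90b1.

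Factors of ribosome biogenesis rose in 13 of 25 genes tested and fell in 0, with a median of 0.50. Nop58, a core protein of box C/D small nucleolar particles, stood at 1.96, 2.06 and 1.12 FPKM at 2 hours and at 6.76, 5.62 and 4.83 FPKM at 4 hours (change 1.72, SE 0.21, adjusted p = 6.29e-07). Gnl3, the nucleolar GTPase nucleostemin, rose from 10.9, 10.4 and 7.45 FPKM to 31.6, 25.5 and 24.2 FPKM (change 1.5, SE 0.16, adjusted p = 6.35e-08). For both, the 2-hour level was below the SHAM4h mean (2.63 and 18.2 FPKM) and the 4-hour level above it. Wdr43, of the small subunit processome, rose from 6.92, 7.48 and 3.18 FPKM to 16.5, 12.7 and 10.4 FPKM (change 1.23, SE 0.20, adjusted p = 4.01e-05), and Ncl, the nucleolar protein nucleolin, from 18.4, 21.5 and 6.00 FPKM to 35.8, 28.6 and 29.8 FPKM (change 1.22, SE 0.25, adjusted p = 0.000469). Here too IRI2h-R3 was lowest, and 9 members rose without it. Without IRI4h-R1, the highest library for all 13 risen members, 8 rose and 1 fell. Ribosomal protein genes, in contrast, counted 5 higher and 2 lower of 79, with a median of 0.03, the same as over all genes.

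Some genes of the circadian clock rose. Of 17 clock genes tested, 5 rose and 0 fell, with a median of 0.48, and 5 rose also without IRI2h-R3, with the GC trend removed and without IRI4h-R1, where 1 fell. The cryptochrome Cry2 stood at 10.4, 8.77 and 12.0 FPKM at 2 hours and at 27.4, 32.1 and 29.5 FPKM at 4 hours (change 1.51, SE 0.28, adjusted p = 0.000172), above both SHAM4h (9.59 ± 2.57 FPKM) and IRI24h (6.18 ± 0.390 FPKM). Cry1, which holds the E-box shown above, rose from 1.60, 1.07 and 2.03 FPKM to 4.58, 6.44 and 3.84 FPKM (change 1.61, SE 0.32, adjusted p = 0.000343), beside a SHAM4h mean of 5.60 FPKM. Per2, a partner of the cryptochromes, rose from 8.47, 6.01 and 10.9 FPKM to 15.1, 27.6 and 26.8 FPKM (change 1.43, SE 0.28, adjusted p = 0.000286). Nr1d2, the repressor REV-ERB beta, rose from 27.5, 25.3 and 11.9 FPKM to 39.5, 46.4 and 41.3 FPKM (change 1.06, SE 0.24, adjusted p = 0.00122). The promoter windows of Cry2 and Nr1d2 held no E-box, and Per2 had no window. Bhlhe41, the fifth, had a change of 0.86 (adjusted p = 0.0179), was named after its values were seen, and was not called without IRI4h-R2 (adjusted p = 0.0976) or IRI2h-R2 (adjusted p = 0.066). The activator Arntl, chosen after its values were seen, had overlapping groups of 3.01, 4.34 and 2.86 FPKM and 4.39, 1.92 and 1.56 FPKM (change -0.48, adjusted p = 0.497). The sample labels used here give no hour of death, so that clock time cannot be told apart from time after ischemia.

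Genes of plasminogen activation, coagulation and matrix proteases rose in 6 of 18 and fell in 0 (median 0.76), with 5 risen without IRI2h-R3 and 4 without IRI4h-R1. F3, tissue factor, which starts coagulation, rose from 25.0, 17.6 and 22.8 FPKM to 100.3, 68.0 and 84.0 FPKM (change 1.94, SE 0.29, adjusted p = 8.97e-06). Plaur, the urokinase receptor, rose from 10.5, 7.33 and 13.9 FPKM to 51.2, 27.7 and 27.4 FPKM (change 1.72, SE 0.38, adjusted p = 0.00112), and Procr, the endothelial protein C receptor, had a change of 1.29 (SE 0.25, adjusted p = 0.000334). All 3 were without overlap. Targets of serum response factor and YAP rose in 7 of 22 (6 without IRI2h-R3, 4 without IRI4h-R1), among them Ankrd1, a muscle ankyrin repeat protein, from 1.51, 1.16 and 1.19 FPKM to 4.82, 6.10 and 4.38 FPKM (change 1.90, SE 0.43, adjusted p = 0.00134). Death receptors and BCL2 family genes rose in 7 of 20 and fell in 0, and 5 rose without IRI2h-R3 and 3 without IRI4h-R1, the highest library for all 7. The initiator caspase Casp8 went from 7.74, 8.34 and 5.30 FPKM to 14.6, 13.7 and 14.1 FPKM (change 1.00, SE 0.13, adjusted p = 1.55e-06). Of 22 p53 targets 5 rose and 1 fell (4 and 1 without IRI2h-R3, 3 and 1 without IRI4h-R1), and Mdm2, which ubiquitinates p53, rose from 17.4, 17.1 and 12.5 FPKM to 37.2, 26.8 and 29.5 FPKM (change 0.99, SE 0.13, adjusted p = 2.19e-06). Of 15 NRF2 targets 2 rose (13.33%) and 1 fell (6.67%), no more than the shares over all genes. The counts were 4 and 0 without IRI2h-R3 and 2 and 0 without IRI4h-R1. The 2 that rose with all libraries were Srxn1, sulfiredoxin, from 35.9, 31.7 and 52.2 FPKM to 156, 133 and 75.7 FPKM (change 1.57, SE 0.24, adjusted p = 1.49e-05), and Txnrd1, thioredoxin reductase (change 0.86, SE 0.19, adjusted p = 0.00103).

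Of 21 hypoxia-inducible genes 5 rose and 4 fell. Hk2, a hexokinase of glycolysis, rose from 0.240, 0.245 and 0.484 FPKM to 2.55, 1.26 and 1.06 FPKM (change 1.98, SE 0.48, adjusted p = 0.00247), and Pfkfb3, which makes the activator of phosphofructokinase, from 9.36, 7.32 and 9.56 FPKM to 24.8, 16.5 and 17.9 FPKM (change 1.15, SE 0.27, adjusted p = 0.00209). Ndrg1, a hypoxia marker, was lower, from 533, 610.1 and 594 FPKM to 400.0, 243 and 294 FPKM (change -0.92, SE 0.26, adjusted p = 0.00893), but not called without IRI4h-R2 (adjusted p = 0.065). Without IRI2h-R3 the hypoxia list counted 2 higher and 1 lower, and without IRI4h-R1 2 and 3. Of 15 genes of fatty acid oxidation and gluconeogenesis, 3 rose (20%) and 1 fell (6.67%), and 2 rose and 1 fell without IRI2h-R3 and without IRI4h-R1 alike. Acadm, a dehydrogenase of fatty acid oxidation, rose from 354, 359.7 and 189 FPKM to 591, 558 and 692 FPKM (change 1.08, SE 0.21, adjusted p = 0.000241), to near its SHAM4h mean of 683 FPKM. G6pc, the catalytic subunit of glucose-6-phosphatase and last step of gluconeogenesis, fell from 202, 289 and 188 FPKM to 112, 130.1 and 128 FPKM (change -0.85, SE 0.21, adjusted p = 0.00269), where SHAM4h had 983 and IRI24h 24.0 FPKM. The metallothionein Mt2, which binds zinc and copper, rose from 246, 143 and 265 FPKM to 1553, 709 and 505 FPKM (change 1.96, SE 0.45, adjusted p = 0.00161).

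Some protein-coding genes with a large rise belong to none of these groups. Prrg4, a membrane protein with a Gla domain, was at 2.78, 2.22 and 1.80 FPKM at 2 hours and at 19.4, 24.9 and 12.1 FPKM at 4 hours (change 2.96, SE 0.41, adjusted p = 3.69e-06). Jmjd1c, of the family of JmjC histone demethylases, rose from 6.62, 7.03 and 2.04 FPKM to 28.4, 29.4 and 20.1 FPKM (change 2.46, SE 0.32, adjusted p = 1.58e-06), and Ttbk2, a kinase needed to start a cilium, from 1.23, 1.39 and 0.631 FPKM to 7.21, 5.56 and 4.11 FPKM (change 2.30, SE 0.23, adjusted p = 1.23e-08). The means of Jmjd1c in SHAM4h and IRI24h were 7.65 and 8.10 FPKM, below every IRI4h library. Nostrin, which moves endothelial nitric oxide synthase inside the cell, had a change of 2.09 (SE 0.33, adjusted p = 2.14e-05), and 1700109H08Rik, for which no role is given here, one of 2.66.

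Transcription factors of the nephron were the list with the most members lower. Of 24 nephron transcription factors, 8 fell (33.33%, beside 10.6% of all genes tested) and 1 rose, with a median of -0.29. Without IRI2h-R3 7 fell and without IRI4h-R1 8 did, beside 7.52% and 6.92% of all genes. Tfap2b, a factor of the distal nephron, fell from 6.77, 6.62 and 4.03 FPKM to 2.201, 2.61 and 3.63 FPKM (change -1.01, SE 0.20, adjusted p = 0.000326). Emx1, a homeobox factor, fell from 32.8, 37.5 and 44.4 FPKM to 17.1, 18.01 and 27.1 FPKM (change -0.90, SE 0.21, adjusted p = 0.00187), and Esrrb, an orphan nuclear receptor, from 14.5, 16.8 and 15.0 FPKM to 7.41, 7.34 and 9.55 FPKM (change -0.93, SE 0.25, adjusted p = 0.00595). Hnf4a, a nuclear receptor of the proximal tubule, fell from 236, 226 and 233 FPKM to 151, 165 and 169 FPKM (change -0.52, SE 0.12, adjusted p = 0.00198). The groups did not overlap in any of these 4.

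By size, Lars2 apart, the first of the lower protein-coding genes with a group mean of at least 5 FPKM was Exoc3l2, related to a subunit of the exocyst, at 15.1, 13.8 and 19.0 FPKM and then 4.46, 4.69 and 6.56 FPKM (change -1.60, SE 0.15, adjusted p = 1.15e-08). IRI4h was the lowest of the 4 groups shown, with means of 14.1 FPKM in SHAM4h and 22.6 FPKM in IRI24h. Sall2, a zinc finger transcription factor, fell from 5.41, 6.32 and 8.16 FPKM to 1.62, 2.22 and 2.61 FPKM (change -1.59, SE 0.21, adjusted p = 1.84e-06). Bsnd encodes barttin, the subunit that chloride channels of the loop of Henle need. It fell from 20.9, 20.5 and 28.1 FPKM to 5.89, 7.07 and 11.2 FPKM (change -1.55, SE 0.24, adjusted p = 1.68e-05). Fads6, a putative fatty acid desaturase, fell from 7.04, 6.70 and 6.37 FPKM to 1.69, 2.48 and 3.01 FPKM (change -1.48, SE 0.22, adjusted p = 1.24e-05). Ak1, adenylate kinase, had a change of -1.16 (SE 0.22, adjusted p = 0.000216), Wdr81, of endosome traffic, one of -1.17 (SE 0.16, adjusted p = 2.14e-06), and Sox18, a factor of endothelial fate, one of -1.17 (SE 0.23, adjusted p = 0.000348). Slc14a2, the urea transporter of the inner medulla, fell from 19.9, 22.3 and 21.3 FPKM to 9.25, 5.50 and 9.01 FPKM (change -1.44, SE 0.48, adjusted p = 0.0244), and was not called without IRI4h-R2 (adjusted p = 0.115), IRI2h-R3 (adjusted p = 0.0702) or IRI2h-R2 (adjusted p = 0.0524). Other lower genes by this rule (Flrt1, Syt17, Ppp1r1b, Trim61 and Rtn4rl1) changed by -1.44 to -1.15. Of these, Ppp1r1b was not called without IRI2h-R3, IRI4h-R1 or IRI4h-R2 (adjusted p = 0.0756, 0.0959 and 0.0682), and Trim61 not without IRI4h-R1 (adjusted p = 0.0647).

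Few genes that mark nephron segments passed the test. Of 21 proximal tubule markers 0 rose and 0 fell by limma, with a median of -0.32, and 1 of them had an unadjusted p under 0.05. Of the 21, 6 lay below every 2-hour library, beside 18.7% of all genes tested. Of 13 markers of the thick ascending limb and distal convoluted tubule 0 passed as well, with a median of -0.25 and 1 at an unadjusted p under 0.05, while 2 fell without IRI2h-R3 and 1 with the GC trend removed. Without IRI2h-R3, 6 of the 13 were lower at an unadjusted p under 0.05 by limma, with a median of -0.29. Slc34a1, the phosphate transporter of the proximal tubule, was at 2693, 2876 and 4483 FPKM and then 2331, 2744 and 2603 FPKM (change -0.35, SE 0.21, adjusted p = 0.22). T, B and NK cell markers passed in 0 of 10 (0 at an unadjusted p under 0.05). Collecting duct markers counted 0 higher and 1 lower of 13, podocyte markers 1 and 1 of 11, endothelial markers 2 and 2 of 11, and fibroblast and pericyte markers 0 and 1 of 11. Without IRI2h-R3, 1 endothelial marker rose and 4 fell, while 0 collecting duct and 0 fibroblast and pericyte markers were called by limma. In that fit 2 collecting duct and 1 fibroblast and pericyte marker were lower at an unadjusted p under 0.05.

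The counts of other lists are to be read beside 13.7% higher and 10.6% lower over all genes tested. Glucocorticoid-induced genes and metallothioneins counted 4 higher of 12 (33.33%), but 2 without IRI2h-R3 and 1 without IRI4h-R1. Short-lived kinases counted 3 of 11 (27.27%) and mRNA decay factors 2 of 12 (16.67%), each with 0 lower. EGF receptor ligands and receptors counted 2 higher and 1 lower of 11, TGF-beta family genes 2 and 1 of 18, polyamine genes 2 and 1 of 10 (0 and 0 without IRI2h-R3, with 3 higher at an unadjusted p under 0.05 by limma), and prostaglandin genes 1 and 1 of 9. G1 cyclins and CDK inhibitors counted 1 higher and 2 lower of 13, interferon-stimulated genes 1 and 0 of 16, Notch genes 0 and 1 of 10, and histone genes 0 and 1 of 14. Of 12 genes of cholesterol synthesis and uptake 0 passed by limma, and 2 were lower at an unadjusted p under 0.05. Of the lists above in which 0 members fell, ribosome biogenesis factors had 3 lower members at an unadjusted p under 0.05, interferon-stimulated and cholesterol genes 2 each, and each of the others 0 or 1.

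**Figure D4:**
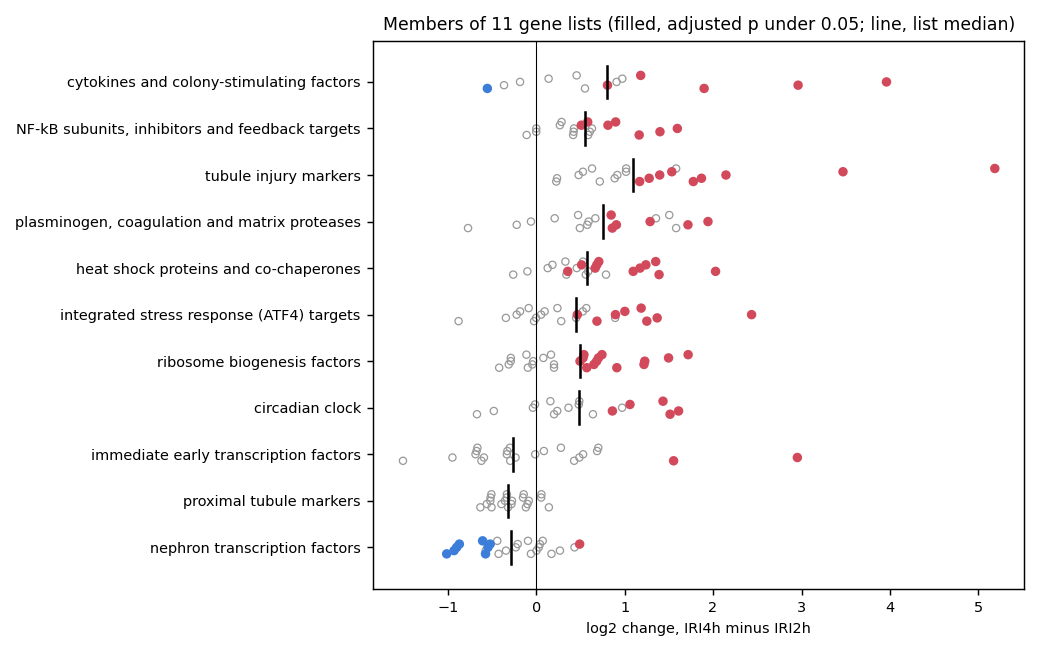
Log2 change from IRI2h to IRI4h (horizontal) of the tested members of 11 gene lists (vertical), 1 point a gene, filled where the adjusted p was under 0.05, with the list median as a line. Medians range from 1.09 for tubule injury markers to -0.32 for proximal tubule markers.

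The 3 kidneys of 4 hours did not lead in the same lists. Of the 2047 higher genes, 1250 (61.06%) were highest in IRI4h-R1, 532 (25.99%) in IRI4h-R2 and 265 (12.95%) in IRI4h-R3. IRI4h-R1 was the highest library in 9 of 9 risen injury markers, 7 of 7 risen NF-kB genes, 5 of 5 risen cytokines and 13 of 13 risen ribosome biogenesis factors. IRI4h-R2 was the highest in 10 of 11 risen heat shock genes and in 5 of 5 risen clock genes. IRI4h-R3 was the highest in 3 of 3 risen genes of fatty acid oxidation and gluconeogenesis. Against the mean of the 2-hour libraries, the median over all tested injury markers was 1.76, 0.97 and 0.51 in R1, R2 and R3, and that over neutrophil markers was 2.78, 0.81 and 0.55. For heat shock genes the medians were 0.54, 0.81 and 0.39, and for clock genes 0.28, 0.70 and 0.57. The neutrophil markers themselves counted 1 higher and 0 lower of 9 tested by limma, with a median of 1.33 over both groups' means, and 3 of 15 macrophage markers rose. Without IRI4h-R1 0 markers of both lists rose by limma, with 1 and 1 at an unadjusted p under 0.05. These are descriptions of 3 mice, and the order among them was not tested.

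**Figure D5:**
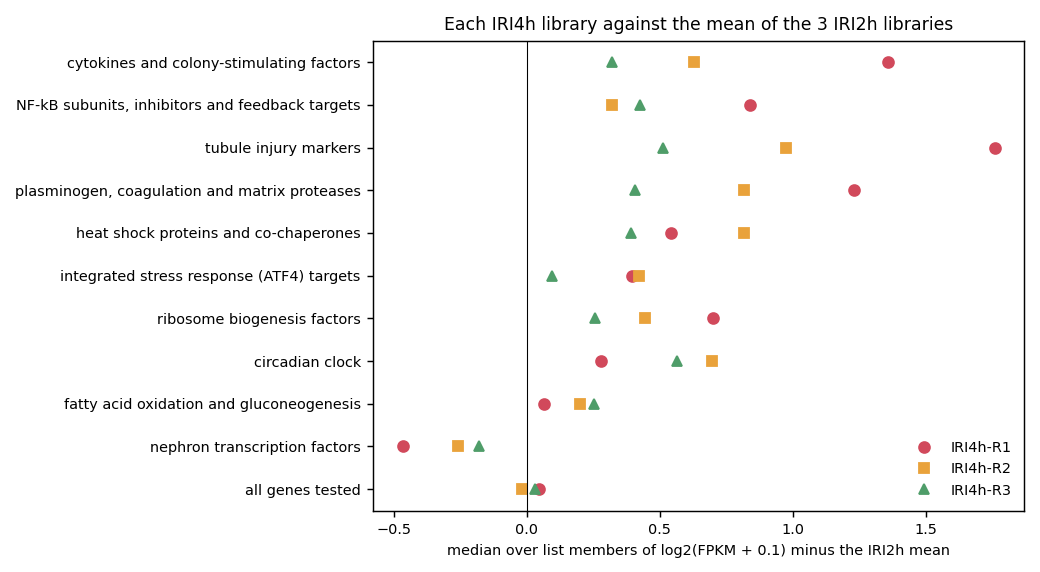
Median over the tested members of 10 gene lists, and over all genes tested, of log2(FPKM + 0.1) minus the mean of the 3 IRI2h libraries (horizontal), for each IRI4h library. IRI4h-R1 leads for injury markers (1.76) and cytokines, and IRI4h-R2 for heat shock (0.81) and clock genes (0.70).

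The largest falls were those of Lars2 and of genes that are not protein-coding. Lars2, the leucyl-tRNA synthetase of mitochondria, is known in mouse data for collecting reads of ribosomal RNA, as is Mir6236. Lars2 stood at 218, 211 and 338 FPKM at 2 hours and at 35.9, 55.7 and 42.0 FPKM at 4 hours (change -2.51, SE 0.37, adjusted p = 8.97e-06). Mir6236 went from 1257, 1015 and 1616 FPKM to 122, 207 and 103 FPKM (change -3.21, SE 0.47, adjusted p = 8.54e-06), and Gm15564, annotated as antisense in libraries without strand, from 50.4, 28.4 and 41.7 FPKM to 1.51, 3.00 and 1.97 FPKM (change -4.17, SE 0.46, adjusted p = 9.95e-08). Summed over these 3 and Gm24187, Gm24270 and Yam1, which were chosen after values were seen, the level was 3498 to 5435 FPKM at 2 hours and 571 to 957 FPKM at 4 hours. The same sum was 3606 to 4180 FPKM in SHAM4h, 481 to 920 FPKM in SHAM24h and 249 to 520 FPKM in IRI24h, so that it also differed between sham groups. The part of RNA selection or library preparation in these falls, and in the other changes from 2 to 4 hours, was not tested. Gm22009, a snoRNA gene, fell from 7.84, 7.19 and 6.53 FPKM to 0.342, 0.425 and 0.458 FPKM (change -3.84, SE 0.43, adjusted p = 1.15e-07). On the other side, the spliceosomal gene copy Gm25047 rose from 5.69, 6.34 and 2.54 FPKM to 19.5, 37.4 and 34.7 FPKM (change 2.68, SE 0.43, adjusted p = 3.07e-05). The antisense gene Gm14286, which cannot be told apart from its partner without strand, had a change of 2.56 (adjusted p = 0.000277), and Snord53 one of 3.27 (adjusted p = 0.0179), which was not called without IRI2h-R3 (adjusted p = 0.1), IRI4h-R1 (adjusted p = 0.0518) or IRI4h-R3 (adjusted p = 0.0513).

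Higher and lower genes also differed in their make-up. The 538 protein-coding genes higher by at least 2-fold had a median transcript GC content of 44.4%, and the 112 lower ones 54.7%, against 49.9% for all 13209 protein-coding genes tested. For the 233 higher genes that were also called at 2-fold without IRI2h-R3 the median was 49.3%, and for the 84 lower ones 54.3%. The median genomic span was 30633 bases for higher genes, 15565 bases for lower genes and 23537 bases for all tested, and 19651 bases for the higher genes called without IRI2h-R3 too. The median number of exons was 11 and 5 against 9, and 9 for the higher genes called without IRI2h-R3 too. The correlation of the change with log2 span across genes was -0.02 with all libraries and -0.14 without IRI2h-R3. At the edge of the filter, the tested gene Cldn23, a claudin of tight junctions, had a third-highest level of 1.0008 FPKM over the 49 libraries, and the untested gene 4930579F01Rik one of 0.9999 FPKM.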

How the data were processed

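RNA-seq of mouse kidney was analysed from the FPKM table deposited by the authors, who prepared unstranded poly(A) libraries, aligned paired reads of 100 bases with STAR 2.5.0b to build mm10 with GENCODE annotation, and removed duplicates. The authors' own tests of differential expression were not used. Here log2(FPKM + 0.1) was fitted over 49 libraries with limma 3.58.1 (trend, robust; R 4.3.3), group as the only term, contrast IRI4h minus IRI2h, two-sided, with Benjamini-Hochberg adjustment at 0.05 over 14895 genes with at least 1 FPKM in at least 3 libraries. Tables and figures used Python 3.11.15, pandas 2.3.3 and matplotlib 3.10.9. In simulated data with this design, 66 of 100 genes changed by 1 and 95 of 100 changed by 2 on the log2 scale were called, and 7 of 14695 unchanged genes. The simulated noise was independent between genes and libraries, with the same spread in every group and no GC trend. The rate of false calls in the real data was therefore not tested.

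FPKM carry no counts. Steps of low values gave whole reads (within 0.1) for 96.2% to 98.73% of values, which gave the depths. Named genes were 15 protein-coding genes in each direction, ranked by size of change among called genes whose groups did not overlap and reached a mean of 5 FPKM, up to 4 called members and the 2 with the highest mean of each list, and 3 higher and 3 lower genes of other biotypes. Of the lower genes, 1 is not reported here. Others are marked as chosen after their values were seen. The members and lists were chosen with earlier results of these data known. Settings planned and added after seeing the data (GC trend removed by loess, 5 libraries) are compared in the closing section.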

Additional observations from a re-analysis of the deposited data

How the results depend on the processing

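The counts of 2047 higher and 1577 lower genes (638 and 152 by at least 2-fold) were recomputed under other settings, 1 choice at a time. With a pseudocount of 1 FPKM, 314 genes were higher and 39 lower by at least 2-fold. With quantile normalization 229 were lower by at least 2-fold. Fitting only the 6 libraries without a replicate block called 102 higher and 81 lower genes (96 and 54 by at least 2-fold). With the replicate block 0 and 0 genes were called by limma (0 and 0 by at least 2-fold), while 3345 had an unadjusted p under 0.05. The deviations of same-numbered libraries from their group means had r = -0.09, 0.06 and -0.03 across genes. Differently numbered pairs had r from -0.10 to 0.11. With 3 libraries in a group, these values cannot show whether same-numbered libraries shared a day of surgery or preparation.

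Leaving out 1 library in turn gave 1031 to 2417 higher and 1030 to 1521 lower genes, and 333 to 944 and 115 to 219 by at least 2-fold. The lowest higher counts came without IRI2h-R3, and the cause was not tested.

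The following settings were chosen after seeing the data. With the GC trend removed in the 6 libraries, 413 genes were higher and 143 lower with the replicate block (270 and 67 by at least 2-fold), and 908 and 574 without it (373 by at least 2-fold higher). With 5 libraries, IRI2h-R3 left out, 933 were higher and 886 lower (316 by at least 2-fold higher).

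Depth limits low genes: 2-hour Krt20 at 0.386 FPKM stood for 33.9 reads.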

Other observations

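Of 31 unprocessed pseudogenes tested, 11 were lower at 4 hours and 1 was higher, beside 10.6% and 13.7% of all genes. Of the lower ones, 6 lie on chromosome 1 between 24611535 and 24616197 and 3 on chromosome 2 between 22587291 and 22590533 (positions as in the annotation of the files). The summed level of the 6 was 243, 159 and 292 FPKM at 2 hours and 79.8, 72.0 and 92.3 FPKM at 4 hours, beside sums of means of 178 FPKM in SHAM4h and 160.4 FPKM in IRI24h. That of the 3 was 31.2, 19.96 and 29.5 FPKM and then 9.27, 9.51 and 9.46 FPKM. Most of the first sum is Gm28438 (161, 101.5 and 220.2 FPKM at 2 hours), which was not called without IRI2h-R3 (adjusted p = 0.147), and Gm10925 stood at a mean of 15.5 FPKM at 2 hours, 9.54 FPKM at 4 hours and 37.2 FPKM in IRI24h. Gm10925 was not called by limma without IRI4h-R2 (adjusted p = 0.101). On chromosome 1, Gm28439, Gm29216 and Gm28661 also lost the call without IRI2h-R1, IRI4h-R2 and IRI2h-R3 in that order (adjusted p = 0.215, 0.0799 and 0.0884). In both sums every 4-hour library lay below every 2-hour library, and 3 of the 6 and 3 of the 3 were called lower without IRI2h-R3. Reads of near-identical copies elsewhere in the genome cannot be told apart from reads of these loci.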
